A study of Homo sapiens with 4 samples.

Results

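The 6 IRX genes and the 3 HEY genes encode transcription factors, several of which are used to tell ventricular from atrial heart muscle. Their 9 rows (IRX1, IRX2, IRX3, IRX4, IRX5, IRX6, HEY1, HEY2 and HEYL) were taken by Ensembl identifier from a table of 60234 genes, and all 9 were matched. The libraries came from a human embryonic stem cell line, NKX2.5 (eGFP/w), in which 1 allele of NKX2-5 drives GFP, so that fluorescence marks cells of the cardiac lineage. Embryoid bodies were differentiated towards cardiomyocytes and received 1 µM retinoic acid (RA) or its solvent DMSO (control, CTR) from day 4 to day 7. At day 31 each culture was sorted, which gave 4 populations: RA GFP-positive, CTR GFP-positive, RA GFP-negative and CTR GFP-negative. Each population was 1 library of 1 cell line, and the RA and CTR cells grew in separate cultures, so that no difference has a replicate check and an effect of the culture and an effect of RA cannot be told apart. No test between populations was made.

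Iroquois (IRX) proteins bind DNA through a homeodomain of the TALE class and lie in the genome in a pair of clusters of 3 genes each. In the heart, IRX4 is known as a ventricular factor, IRX3 as a factor of the fast conduction system, and IRX5 as a regulator of repolarization across the ventricular wall. HEY proteins are basic helix-loop-helix repressors and classical targets of Notch signalling, in which a ligand on a neighbouring cell frees the intracellular part of a NOTCH receptor to join the DNA-binding protein RBPJ. In the developing heart HEY1 is known from the atria, HEY2 from the compact ventricular wall and HEYL mainly from vascular smooth muscle. RA given early in differentiation is widely used to direct cultures towards atrial fates.

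The deposited reads summed to between 26222787 and 28643091 in 3 libraries and to 4371101 in the CTR GFP-negative library, which was the shallowest. Where a gene had 0 reads, up to 3 reads were allowed for, which equalled 0.639 CPM (read counts scaled to a common library size after TMM normalization) there and 0.105 to 0.117 CPM in the others. CPM are given with exact Poisson 95% intervals and ratios of CPM with Clopper-Pearson 95% intervals, and both cover counting error only, since amplified reads are not independent molecules. NKX2-5 had 463 CPM in RA and 593 CPM in CTR GFP-positive cells, against 9.74 and 14.5 CPM in the GFP-negative cells. The summed level of 10 cardiomyocyte markers was 23558 and 22728 CPM in the GFP-positive cells and 586 and 979 CPM in the GFP-negative cells, RA first. The sum hides that 7 of the 10 were lower with RA in GFP-positive cells (median log2 difference -0.30, none past 2-fold), while ACTC1 had 7538 CPM with RA and 4839 CPM in CTR. Among 10 fibroblast and mesenchyme markers the sum was 15344 CPM in RA and 4020 CPM in CTR GFP-positive cells, and 62359 and 32311 CPM in the GFP-negative cells. The collagen genes COL1A1, COL1A2 and COL3A1 made up most of this sum in every library. COL3A1 alone had 8758 and 2247 CPM in the GFP-positive cells, RA first.

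Promoters of the 4 genes that differed by at least 2-fold between RA and CTR GFP-positive cells are shown, since these are the members whose levels the comparisons below turn on. They were read from a RefSeq table for GRCh38.p14, whereas gene coordinates elsewhere in the text are those of GRCh37. Each runs from 250 bases before a transcription start to 50 bases after it, 5′ to 3′ on the strand of the gene. Capitals mark matches, on either strand, to TGGGAA (the RBPJ core) or to CACGTG (an E box, the kind of site that basic helix-loop-helix proteins bind). The HEY2 window is chr6:125749382-125749681 on the plus strand, the HEYL window chr1:39639594-39639893 on the minus strand, the IRX1 window chr5:3595582-3595881 on the plus strand and the IRX4 window chr5:1886896-1887195 on the minus strand.
HEY2: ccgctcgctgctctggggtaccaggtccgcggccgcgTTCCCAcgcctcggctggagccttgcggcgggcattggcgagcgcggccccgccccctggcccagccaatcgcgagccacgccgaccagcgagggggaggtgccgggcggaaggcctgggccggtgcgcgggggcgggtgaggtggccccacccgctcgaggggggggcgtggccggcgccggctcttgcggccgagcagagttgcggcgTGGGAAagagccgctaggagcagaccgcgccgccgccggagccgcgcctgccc
HEYL: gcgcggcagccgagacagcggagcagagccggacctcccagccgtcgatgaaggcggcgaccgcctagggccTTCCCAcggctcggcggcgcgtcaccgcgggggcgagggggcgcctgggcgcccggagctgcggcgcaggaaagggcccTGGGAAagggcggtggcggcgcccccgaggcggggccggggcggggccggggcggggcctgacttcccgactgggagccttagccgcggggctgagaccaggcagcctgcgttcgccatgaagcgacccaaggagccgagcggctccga
IRX1: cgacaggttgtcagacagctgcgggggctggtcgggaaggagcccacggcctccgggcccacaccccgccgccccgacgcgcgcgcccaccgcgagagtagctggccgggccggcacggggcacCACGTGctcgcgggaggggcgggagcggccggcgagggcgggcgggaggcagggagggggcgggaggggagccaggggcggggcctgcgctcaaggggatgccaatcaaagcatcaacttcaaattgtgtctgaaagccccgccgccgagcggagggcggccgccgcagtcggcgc
IRX4: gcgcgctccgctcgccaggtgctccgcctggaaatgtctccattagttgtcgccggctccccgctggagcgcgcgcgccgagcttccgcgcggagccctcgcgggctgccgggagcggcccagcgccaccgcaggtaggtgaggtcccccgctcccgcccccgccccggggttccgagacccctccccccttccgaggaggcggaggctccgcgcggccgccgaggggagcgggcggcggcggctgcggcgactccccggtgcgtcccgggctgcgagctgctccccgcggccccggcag

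Both HEY windows held 2 RBPJ cores, 1 on each strand. In HEY2 the matches began 213 and 3 bases before the start, and in HEYL 178 and 99 bases before it. Of all 35116 windows in the table, 24% held at least 1 such core. The IRX1 window had none and held 1 E box, 126 bases before the start, a motif present in 7.26% of all windows. The RefSeq table has 3 start sites for IRX4 and 1 for IRX2, and none of these 4 windows matched either motif. Also searched were CACGCG, a box that HEY and HES proteins can bind (11.4% of all windows), AGGTCA, the half-site of retinoic acid receptors (13.8%), and AGATAA, the GATA site (10.3%). Of these, only CACGCG was found, once, in the IRX2 window, on the opposite strand. A match is a description of these letters and the lack of one says only that they are not in the window. All 7 windows of the 5 genes were rich in G and C, at 63% to 79.7% against a median of 58.7% over the table.

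IRX4 differed most between the libraries among the IRX genes. It is a protein-coding gene on the minus strand of chromosome 5 (GRCh37, 1877527 to 1887350). It had 6907 reads in CTR GFP-positive cells, or 241 CPM (235 to 247), and 1023 reads in RA GFP-positive cells, or 38.3 CPM (35.9 to 40.7). The GFP-negative cells had 54 reads with RA, 2.10 CPM (1.58 to 2.75), and 7 reads in CTR, 1.49 CPM (0.599 to 3.07). Both GFP-positive libraries lay above both GFP-negative libraries, and the CTR GFP-positive library held 6.30 times (5.90 to 6.74) the CPM of its RA counterpart. In the GFP-negative cells the RA ratio was 1.41 (0.640 to 3.68), which includes 1. Within CTR, IRX4 was 162-fold higher (78.4 to 402) in GFP-positive cells, and within RA 18.2-fold higher (13.8 to 24.4). The level in GFP-negative cells was 0.618% of that in GFP-positive cells in CTR and 5.50% with RA. For the 10 cardiomyocyte markers that percentage ran from 1.51% to 13.9% in CTR and from 0.715% to 7.27% with RA.

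IRX3 (chromosome 16, 54317216 to 54320699, minus strand) was also higher in GFP-positive cells but differed little between RA and CTR. It had 158 CPM (153 to 163) in RA and 154 CPM (150 to 159) in CTR GFP-positive cells, from 4231 and 4419 reads, and 15.1 CPM (13.6 to 16.7) and 17.5 CPM (13.9 to 21.7) in the GFP-negative cells. The intervals of RA and CTR overlapped in both fractions. The RA ratio was 1.03 (0.983 to 1.07) in GFP-positive and 0.864 (0.679 to 1.11) in GFP-negative cells, and its sign in GFP-positive cells turned under 3 of 7 alternative scalings and pseudocounts. In CTR the GFP-positive level of IRX3 exceeded the GFP-negative level 8.83-fold (7.10 to 11.1), and with RA 10.5-fold (9.45 to 11.7).

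IRX5 (chromosome 16, 54964777 to 54968397, plus strand) had 43.4 CPM (41.0 to 46.0) in RA and 22.1 CPM (20.4 to 23.9) in CTR GFP-positive cells, and 18.7 CPM (17.0 to 20.4) and 13.6 CPM (10.5 to 17.4) in the GFP-negative cells. RA GFP-positive cells thus held the highest level, at a ratio to CTR of 1.97 (1.78 to 2.17). On the log2(CPM + 1) scale used to count genes this was a difference of 0.94, just short of the 2-fold limit of 1. In GFP-negative cells the ratio was 1.37 (1.05 to 1.81).

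IRX1 and IRX2, the cluster partners of IRX4, moved in opposite directions in GFP-positive cells. IRX1 (3595946 to 3601517, plus strand), known in the mouse from the ventricular septum, had 231 reads with RA, 8.64 CPM (7.56 to 9.83), and 101 in CTR, 3.52 CPM (2.87 to 4.28). Its highest level was in RA GFP-negative cells, with 469 reads and 18.3 CPM (16.7 to 20.01), and its lowest in CTR GFP-negative cells, with 12 reads and 2.56 CPM (1.32 to 4.46). The RA ratio was 2.45 (1.93 to 3.13) in GFP-positive and 7.15 (4.06 to 13.9) in GFP-negative cells. On the log2(CPM + 1) scale these were differences of 1.09 and 2.44, and the first became 0.68 with a pseudocount of 5 CPM. IRX1 shares 383 of its 2080 exon bases (18.4%) with an antisense gene, ENSG00000259603, that had 0 reads in every library, and counting did not use strand, so that its level is uncertain by the reads on those bases.

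IRX2 (2745959 to 2751791, minus strand) had 13.6 CPM (12.2 to 15.04) in RA and 24.9 CPM (23.1 to 26.8) in CTR GFP-positive cells, and 17.5 CPM (15.9 to 19.2) and 14.3 CPM (11.1 to 18.1) in the GFP-negative cells. CTR GFP-positive cells stood above the other 3 libraries. The RA ratio of 0.546 (0.479 to 0.620) in GFP-positive cells was a log2 difference of -0.83, within 2-fold, and the ratio in GFP-negative cells was 1.22 (0.945 to 1.61). IRX6 (55358115 to 55364668, plus strand of chromosome 16) had 13, 4, 7 and 2 reads in RA GFP-positive, CTR GFP-positive, RA GFP-negative and CTR GFP-negative cells. It stayed under 1 CPM in every library and was the 1 member that did not pass the filter.

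**Figure D1:**
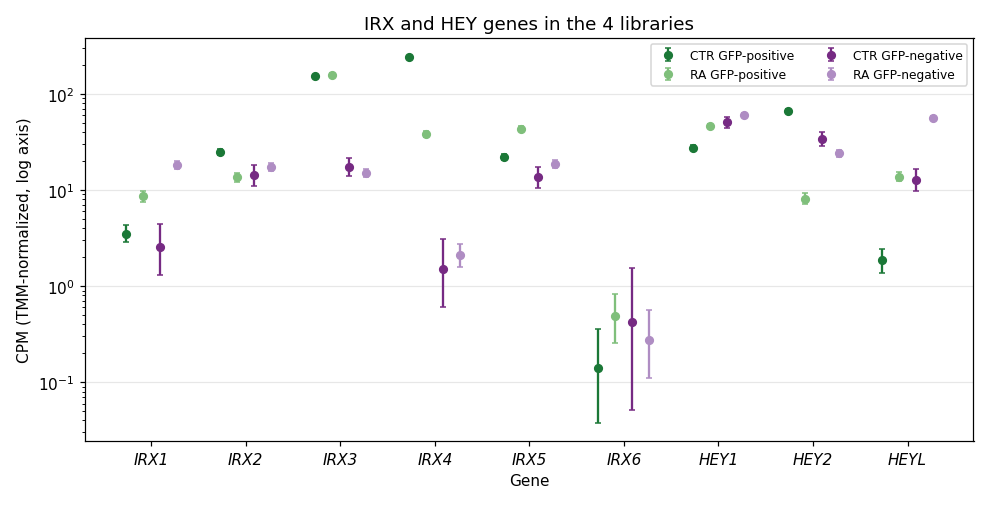
CPM of each gene (log axis) in the 4 libraries, 1 point per library with its exact Poisson 95% interval. IRX4 spans 1.49 to 241 CPM, IRX3 splits by fraction, HEY2 is highest in CTR GFP-positive cells at 66.0 CPM, and HEYL is lowest there at 1.85 CPM.

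Among the HEY genes, HEY2 and HEYL moved in opposite directions with RA in GFP-positive cells. HEY2 (chromosome 6, 126068810 to 126082415, plus strand) had 218 reads in RA GFP-positive cells, 8.15 CPM (7.11 to 9.31), and 1890 in CTR GFP-positive cells, 66.0 CPM (63.0 to 69.0). The GFP-negative cells had 617 reads with RA, 24.0 CPM (22.2 to 26.02), and 160 in CTR, 34.1 CPM (29.0 to 39.8). RA GFP-positive cells were the lowest and CTR GFP-positive cells the highest of the 4 libraries, with no overlap of intervals, at a CTR to RA ratio of 8.09 (7.03 to 9.35). Relative to the GFP-negative cells of the same treatment, HEY2 in GFP-positive cells was therefore 1.94-fold higher (1.65 to 2.29) in CTR and 2.95-fold lower (2.52 to 3.46) with RA.

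HEYL (chromosome 1, 40089107 to 40105315, minus strand) had 369 reads in RA GFP-positive cells, 13.8 CPM (12.4 to 15.3), and 53 in CTR GFP-positive cells, 1.85 CPM (1.39 to 2.42). In the GFP-negative cells it had 1446 reads with RA, 56.4 CPM (53.5 to 59.3), and 60 in CTR, 12.8 CPM (9.75 to 16.4). Each RA library lay above the CTR library of its own fraction, at ratios of 7.46 (5.58 to 10.1) and 4.41 (3.41 to 5.81), and each GFP-negative library lay above its GFP-positive partner. Most fibroblast markers moved with HEYL. Of the 9 such markers that passed the filter, all 9 were at least 2-fold higher with RA in the GFP-positive fraction and 5 of 9 in the other, beside 5.09% and 8.69% of all genes. Those 9 were COL1A1, COL1A2, COL3A1, DCN, LUM, PDGFRA, POSTN, TCF21 and FBLN1, at differences of 1.15 to 2.24 in GFP-positive cells. TCF21 went the other way in the GFP-negative fraction, at 17.0 CPM with RA and 23.4 CPM in CTR. PDGFRA departed from HEYL between the fractions. With RA it had 295 CPM in the GFP-positive library and 138.5 CPM in its GFP-negative partner, and in CTR 132 and 87.3 CPM. No fibroblast marker was at 0 reads in any library. Smooth muscle and pericyte markers split: of 10 in GFP-positive cells, ACTA2, TAGLN, MYH11 and PDGFRB were at least 2-fold higher with RA, ABCC9 was lower (4.08 and 10.1 CPM), and 5 were within 2-fold, beside 5.09% of all genes higher and 2.12% lower. Of 7 epithelium and endoderm markers that passed there, 2 were at least 2-fold higher with RA, AFP (22.6 and 0.279 CPM) and EPCAM (34.3 and 15.9 CPM), and 0 lower, with a median of 0.87. The part of other cell types in the values of HEYL, IRX1 and the other members was not tested, and in such bulk libraries fewer cells of a type and less RNA per cell cannot be told apart.

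HEY1 varied least of the HEY genes. It had 46.5 CPM (43.97 to 49.2) in RA and 27.7 CPM (25.8 to 29.7) in CTR GFP-positive cells, and 60.3 CPM (57.3 to 63.4) and 50.5 CPM (44.3 to 57.3) in the GFP-negative cells, from 237 to 1547 reads. CTR GFP-positive cells were the lowest. The RA ratio was 1.68 (1.54 to 1.84) in GFP-positive and 1.19 (1.04 to 1.38) in GFP-negative cells, both within 2-fold.

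Counted together, 8 of the 9 genes passed the filter of 1 CPM in either library, and these 8 also had at least 1 CPM in each of the 4 libraries. In GFP-positive cells, IRX1 and HEYL were at least 2-fold higher with RA (2 of 8), where 5.09% of 17465 genes were, and IRX4 and HEY2 were at least 2-fold lower (2 of 8), where 2.12% of genes were. The members' median log2 difference was 0.38 and that of all genes 0.01. In GFP-negative cells IRX1 and HEYL were again higher (2 of 8, against 8.69% of 18642 genes) and 0 of 8 were lower (7.61% of genes), with a median of 0.30 beside 0.04. IRX4 fell by 2.62 with RA in GFP-positive cells and was 0.32 higher in GFP-negative cells on the log2 scale, where it rested on 54 and 7 reads. For HEY2 the RA differences were -2.87 and -0.49, whereas for HEYL they were 2.38 and 2.06. The gap between the fractions, GFP-positive minus GFP-negative, was -2.94 for IRX4, -2.39 for HEY2 and 0.32 for HEYL, and these gaps were not tested.

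**Figure D2:**
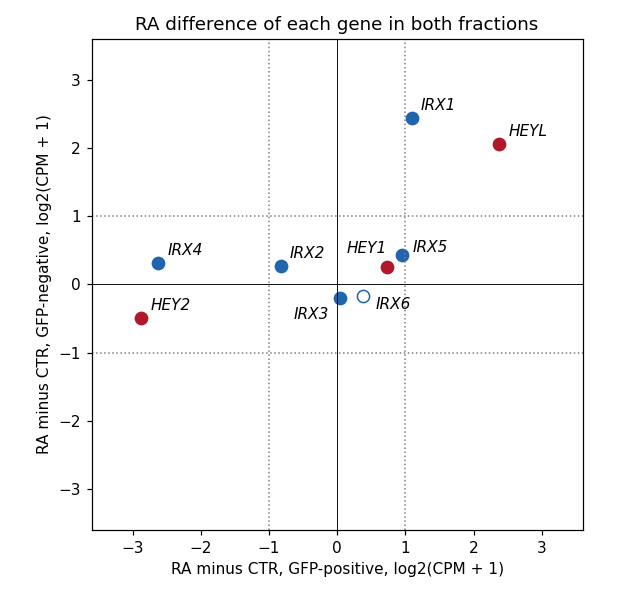
RA minus CTR difference of each gene in log2(CPM + 1), with the GFP-positive fraction on the x axis and the GFP-negative fraction on the y axis, IRX genes in blue, HEY genes in red and IRX6, which is under 1 CPM, as an open circle. Dotted lines mark 2-fold. IRX1 and HEYL lie past 2-fold on both axes, and IRX4 and HEY2 only on the x axis, at -2.62 and -2.87.

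Between the fractions, IRX3 and IRX4 were at least 2-fold higher in GFP-positive cells of CTR (2 of 8, against 14.1% of 18786 genes) and HEYL was lower (1 of 8, against 17%). With RA, IRX3, IRX4 and IRX5 were higher (3 of 8, against 10.2% of 18111 genes), and IRX1, HEY2 and HEYL were lower (3 of 8, against 14.1%). IRX1 fell by 1.0001 on the log2 scale, which is at the limit and fell short of it with upper quartile scaling, with TMM factors of the pair alone, without mitochondrial genes and with a pseudocount of 5 CPM. The members' medians were 0.71 in CTR and -0.35 with RA, beside 0.03 and 0.01 over all genes. Each library enters 2 of these comparisons, so that they are not independent of each other.

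Because the members moved by different amounts, the makeup of each family differed between the libraries. In CTR GFP-positive cells IRX4 took 54.1% (53.2% to 54.9%, exact binomial interval) of the reads of the 6 IRX genes and IRX3 34.6% (33.8% to 35.4%). In RA GFP-positive cells IRX3 took 60.2% (59.1% to 61.4%), IRX5 16.5% (15.7% to 17.4%) and IRX4 14.6% (13.7% to 15.4%), while the CPM of the family summed to 263 against 446 in CTR. The IRX reads of GFP-negative cells were spread more evenly. With RA, IRX5 took 25.98%, IRX1 25.4%, IRX2 24.3% and IRX3 21.0%, whereas in CTR IRX1 took 5.13% of 234 reads. Of the HEY reads, HEY2 took 69.1% (67.3% to 70.8%) in CTR and 11.9% (10.5% to 13.5%) in RA GFP-positive cells, and HEY1 took 29.0% and 67.9%. HEYL took 1.94% in CTR and 20.2% in RA GFP-positive cells, and 13.1% and 40.1% in the GFP-negative cells. These are shares of reads, which favour longer transcripts.

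**Figure D3:**
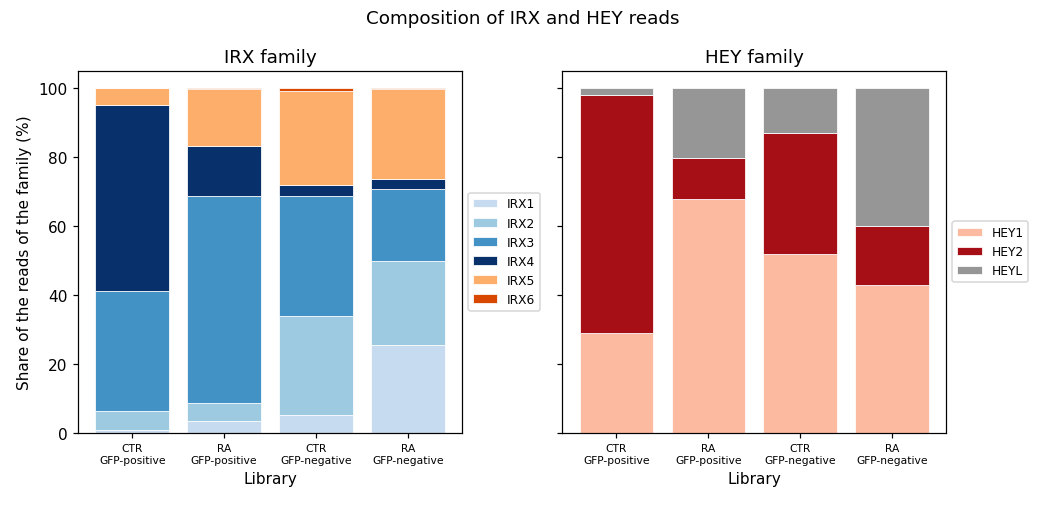
Share of the reads of each family (y axis, %) taken by each gene in the 4 libraries, IRX genes on the left and HEY genes on the right. IRX4 and HEY2 are the largest blocks in CTR GFP-positive cells, at 54.1% and 69.1%, and IRX3 and HEY1 in RA GFP-positive cells, at 60.2% and 67.9%.

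Levels of different genes were compared as CPM per kilobase of the canonical transcript. In CTR GFP-positive cells the order was IRX4 (101), IRX3 (58.7), HEY2 (25.1), HEY1 (12.6), IRX5 (9.21), IRX2 (8.08), IRX1 (1.69), HEYL (0.454) and IRX6 (0.0521), and only IRX5 and IRX2 had intervals that overlapped their neighbour's. With RA the order in GFP-positive cells was IRX3 (60.3), HEY1 (21.2), IRX5 (18.1) and IRX4 (16.0), followed by IRX2, IRX1, HEYL and HEY2 at 4.41 to 3.10, whose intervals overlapped from each to the next, and IRX6. HEY1 headed both GFP-negative libraries, at 27.4 CPM per kilobase with RA and 23.0 in CTR. It was followed by HEYL (13.8) with RA and by HEY2 (12.98) in CTR. The places of HEY1 rest on the transcript length used. Per kilobase of all annotated exons, a length chosen after seeing the data, HEY1 had 8.48 in RA GFP-positive cells, below IRX5 (15.3) and IRX4 (12.9), and 5.04 in CTR GFP-positive cells, below IRX5 (7.77) and IRX2 (7.32). By the same length, HEYL took 41.0% and HEY1 32.6% of the HEY level in RA GFP-negative cells, and HEY2 50.7% and HEY1 36.8% in CTR GFP-negative cells.

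The genome around the members was examined through 14 neighbouring genes. In GFP-positive cells, 1 of the 13 neighbours that passed the filter was at least 2-fold higher with RA (MMP2, a matrix protease of fibroblasts, 3.15-fold, 2.97 to 3.33) and 2 were lower, beside 5.09% and 2.12% of all genes, with a median of 0.03. Both that were lower are noncoding and lie beside a member. HEY2-AS1, on the opposite strand of HEY2, had 2 reads with RA, 118 in CTR GFP-positive cells, 3 in RA GFP-negative cells and 0 in CTR GFP-negative cells. Its RA ratio in GFP-positive cells was 0.0182 (0.00217 to 0.0671). IRX2-DT, which starts 453 bases from IRX2 on the other strand, had 81, 267, 117 and 10 reads in the same order, and a ratio of 0.325 (0.2503 to 0.418). The members beside them, HEY2 and IRX2, had ratios of 0.124 (0.107 to 0.142) and 0.546. CRNDE, a noncoding gene 1675 bases from IRX5, had 52.9 and 47.5 CPM in RA and CTR GFP-positive cells and 19.6 and 20.4 CPM in the GFP-negative cells. Its RA ratio of 1.11 (1.03 to 1.20) in GFP-positive cells compares with 1.97 for IRX5.

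IRX4-AS1, which lies within IRX4 on the opposite strand and was chosen after its values were seen, had 34 reads with RA and 203 in CTR GFP-positive cells, and 3 and 0 reads in the GFP-negative cells. Its ratio of 0.179 (0.121 to 0.259) lay close to the 0.159 (0.148 to 0.169) of IRX4. Taking 3 reads in the CTR GFP-negative library, which had 0, it was at least 11.1-fold higher in CTR GFP-positive cells, and HEY2-AS1 at least 6.45-fold higher. IRX4-AS1 shares 0 exon bases with IRX4, and HEY2-AS1 0 with HEY2. Counting without strand means that unspliced reads of the member cannot be told apart from reads of the antisense gene in its introns. Within the clusters, 859 kb lie between IRX4 and IRX2, 844 kb between IRX2 and IRX1, 644 kb between IRX3 and IRX5 and 390 kb between IRX5 and IRX6.

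**Figure D4:**
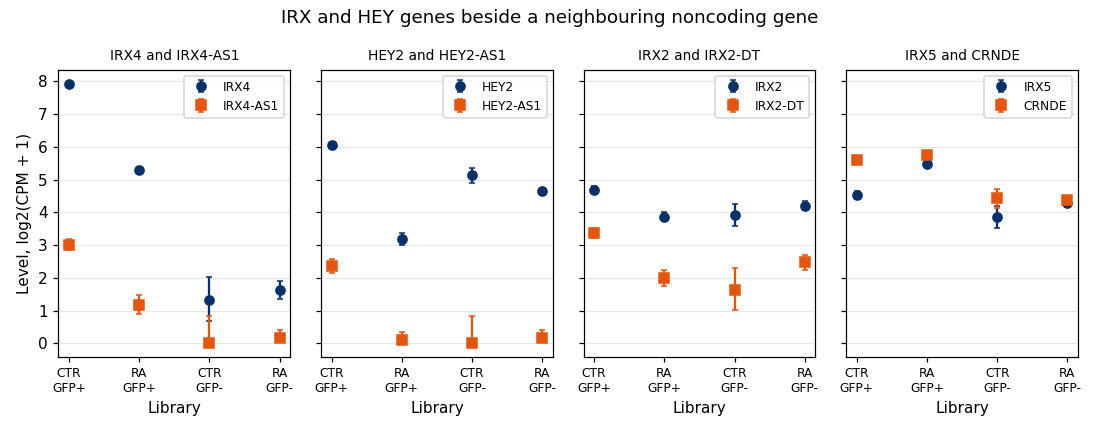
Levels in log2(CPM + 1) of IRX4, HEY2, IRX2 and IRX5 (circles) and of the noncoding gene beside each (squares) in the 4 libraries, with exact Poisson 95% intervals. IRX4-AS1 and HEY2-AS1 are highest in CTR GFP-positive cells, with 203 and 118 reads, where IRX4 and HEY2 are also highest, whereas CRNDE had a smaller RA ratio than IRX5, 1.11 against 1.97.

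Upstream of the HEY genes, 4 of the 18 Notch pathway genes that passed the filter in GFP-positive cells were at least 2-fold higher with RA and 0 of 18 lower, beside 5.09% and 2.12% of all genes, with a median log2 difference of 0.27. The ligand gene JAG1 was furthest apart, at 91.1 CPM in CTR and 535 CPM with RA (5.87-fold, 5.63 to 6.12). The receptor gene NOTCH3, known from vascular smooth muscle, was 2.43-fold higher (2.32 to 2.55). DLK1, a noncanonical ligand, was 4.43-fold higher (4.28 to 4.58), and NRARP, a Notch target that limits the pathway, 2.73-fold (2.21 to 3.38). RBPJ, NOTCH1 and the other 12 were within 2-fold on the log2(CPM + 1) scale, among them the low genes DLL1 and LFNG, whose CPM ratios were 2.34 (1.77 to 3.11) and 2.44 (1.55 to 3.91). In GFP-negative cells 3 of 20 were higher, beside 8.69% of all genes, namely JAG1 (3.30-fold, 3.04 to 3.58), DLK1 (2.38-fold, 2.30 to 2.46) and MFNG, a modifier of the receptors (3.91-fold, 2.15 to 7.94). DLL3, a ligand gene, was lower there, at 2.26 CPM with RA and 6.18 CPM in CTR. The median was 0.11 and turned negative under 2 of 7 alternatives.

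The HES genes, the closest relatives of the HEY genes, include further Notch targets. They were listed with the related genes BHLHE40, BHLHE41 and HELT. Of the 7 genes of this list that passed in GFP-positive cells, 2 were higher with RA and 0 lower, beside the same 5.09% and 2.12%, with a median of 0.63. HES1, the general Notch target, was 2.58-fold higher (2.39 to 2.78), at 87.5 and 33.9 CPM, and BHLHE41, a clock repressor, 3.85-fold (2.95 to 5.08). In GFP-negative cells 1 of 8 was higher (HES2, 122 and 8 reads) and 2 were lower, near the 8.69% of all genes for the first and beside 7.61% for the second. HES5, a neural Notch target, had 0.390 CPM with RA and 11.1 CPM in CTR, and HES6 22.4 and 46.2 CPM. Of the 7 neural markers that passed there, 4 were at least 2-fold lower with RA (median -1.18), PAX6 at 8.50 and 96.3 CPM among them, and STMN2 was higher (72.7 and 16.8 CPM). The part of neural cells was not tested. HEY2 was thus lower with RA in GFP-positive cells, whereas HES1, NRARP and HEYL were higher. HES1 and NRARP were higher still in the GFP-negative cells, at 307 and 210 CPM and at 82.1 and 52.2 CPM, RA first. Between the fractions both lists had more members lower in GFP-positive cells than higher. In CTR 10 of 20 Notch genes and 5 of 8 genes of the HES and related list were at least 2-fold lower there, and 2 and 1 were higher. Over all genes, 17% were lower and 14.1% higher. With RA, 11 of 20 and 5 of 7 were lower, and 2 and 1 higher, beside 14.1% and 10.2% of all genes. The ligand gene JAG2 was 3.01-fold (2.61 to 3.48) and 2.26-fold (2.13 to 2.40) higher in GFP-positive cells, CTR first. The others at least 2-fold higher there were MAML1 in CTR, DLL3 with RA, and HES7 in both. The fibroblast marker sum, mostly of collagen genes, was higher with RA in both fractions, as JAG1 was. Between the fractions the sum was higher in GFP-negative cells, as NOTCH3 was (769 and 387 CPM there, RA first), whereas JAG1 was highest in RA GFP-positive cells, at 535 CPM against 438 CPM in RA GFP-negative cells, although in CTR it too was higher in GFP-negative cells (133 CPM against 91.1 CPM). The part of mesenchymal cells in these values was not tested.

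**Figure D5:**
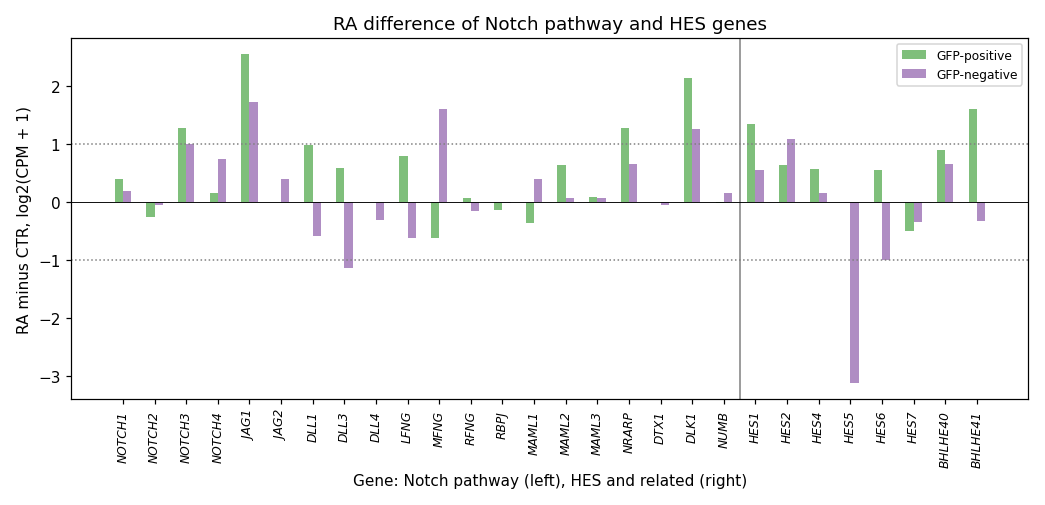
RA minus CTR difference in log2(CPM + 1) of Notch pathway genes (left of the line) and HES and related genes (right), in GFP-positive cells (green) and GFP-negative cells (purple). Bars are drawn where a gene had at least 1 CPM in either library and dotted lines mark 2-fold. JAG1 is the tallest bar at 2.54 in GFP-positive cells and HES5 the lowest at -3.12 in GFP-negative cells.

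Genes known to respond to IRX or HEY factors in the heart were followed in a list of 16, of which GJA5 was not analysed here. In GFP-positive cells 12 passed the filter, 2 were at least 2-fold higher with RA and 2 lower, beside 5.09% and 2.12% of all genes, with a median of 0.23. The higher genes were NPPA, of the atrial natriuretic peptide (131 CPM with RA and 37.8 in CTR, 3.46-fold, 3.23 to 3.70), and SLN, of a calcium pump inhibitor (18.02 and 0.907 CPM, 19.9-fold, 13.4 to 30.7). SLN was higher still in the GFP-negative cells, at 53.4 CPM with RA and 14.9 CPM in CTR, as the fibroblast marker sum was. MYL7 and MYH6, the atrial light and heavy chain genes, were within 2-fold in GFP-positive cells, at 1123 and 1167 CPM and at 7088 and 6782 CPM. The lower genes were both ventricular, MYH7, the slow heavy chain (664 and 2111 CPM, a ratio of 0.315, 0.309 to 0.320), and MYL2. MYL2, the ventricular regulatory light chain, had 107 reads with RA and 580 in CTR GFP-positive cells, a ratio of 0.198 (0.159 to 0.243), and 0 reads in both GFP-negative libraries. KCNIP2, which encodes a subunit of a cardiac potassium channel, and GJA1, the gene of connexin 43, were within 2-fold in GFP-positive cells. Their CPM were 127 and 48.4 with RA and 77.7 and 39.8 in CTR. Of the 13 that passed in GFP-negative cells, 1 was higher (SLN) and 1 lower (MYH7), beside 8.69% and 7.61% of all genes, with a median of -0.54. Against the GFP-negative cells, 10 of 15 were at least 2-fold higher in GFP-positive cells of CTR, as IRX3 and IRX4 were, and 4 were lower, beside 14.1% and 17% of all genes. With RA, 9 of 13 were higher and 3 lower, beside 10.2% and 14.1%.

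For each member with at least 10 CPM in any library, the 3 named genes with the most similar profile were sought among 12161 genes, by the Euclidean distance between profiles of log2(CPM + 1) centred on their mean over the 4 libraries. IRX3 had the closest partner, CAMK2B (distance 0.0208), a calcium-dependent kinase subunit, at 78.0, 74.5, 6.94 and 8.09 CPM in RA GFP-positive, CTR GFP-positive, RA GFP-negative and CTR GFP-negative cells. PPP1R14C (0.184) and EEF1A2 (0.185) came next. IRX4 had no close partner, the nearest being PLCXD3 (1.06), DNAJC5G (1.34) and FHL2 (1.496), a protein of the sarcomere. HEY2 was nearest to TNFRSF19 (0.584), which had 30.96, 212, 53.6 and 79.6 CPM, then to NUP62CL (0.609) and PDGFD (0.676). HEYL was nearest to MARCHF4 (0.231), TBX1 (0.445), a factor of the anterior and second heart field, and FBLN1 (0.494), a matrix gene that is also among the fibroblast markers. For IRX1 they were SOCS1 (0.361), FOXC2 (0.400) and NR4A2 (0.428), and for IRX5 SAMD11 (0.131), PRRT3 (0.162) and PLCB1 (0.178). IRX2 and HEY1 varied little, and their nearest genes were GUCY1A1 (0.0895), C12orf29 and TAF8, and SLC35F6 (0.0452), WSB2 and SOX4. With 4 libraries, such likeness describes these libraries and no more.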

How the data were processed

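RNA from 4 sorted populations of NKX2.5 (eGFP/w) cultures was sequenced, with 1 library per population. The authors aligned the reads with GSNAP to a custom hg19, kept uniquely aligned reads, used SAMtools 0.1.18 and counted reads per Ensembl gene with HTSeq 0.6.1p1 without strand. The deposited values are these raw counts, with no normalization, and the Ensembl release is not given in the sources used here. Ambiguous reads were left out, which lowers genes with overlapping partners.

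The members, gene lists and comparisons were chosen with earlier results of these data known. TMM factors (0.951 to 1.07) from edgeR 4.0.16 in R 4.3.3 turned the counts into CPM. Differences were taken in log2(CPM + 1), which understates changes of low genes, and counted as 2-fold at 1 or more where either library reached 1 CPM. No test was made with 1 library per condition. Intervals (Poisson, Clopper-Pearson, 95%) came from scipy 1.17.1 in Python 3.11.15. The calculation was tested on simulated data. Of the 60234 Ensembl identifiers, 55538 matched a name, and gene coordinates follow GENCODE on GRCh37 (lifted). Promoters came from RefSeq (GRCh38.p14), and windows of 5 of the 9 members were used. Windows on chromosome 8, which holds HEY1, were left out. Figures were drawn with matplotlib 3.10.9.

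Alternatives were scaling to plain library size, to library size without mitochondrial genes, by upper quartile, by DESeq2 1.42.0 size factors and by pairwise TMM, pseudocounts of 0.25 and 5 CPM, other filters, and shares per kilobase. Named were all members, the genes of the Notch, HES, neighbour and chamber lists past 2-fold in an RA comparison of either fraction, the 3 genes nearest to each member in profile, and MKX. Other genes of these lists and of the markers of 6 cell types are mostly given as counts and sums, and those named beyond this rule were chosen after their values were seen.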

Additional observations from a re-analysis of the deposited data

Results flagged for a closer look

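The difference between GFP-positive and GFP-negative cells had opposite signs in CTR and with RA, with both ratio intervals away from 1, for IRX2 and HEY2. For IRX2 it was 0.76 in log2(CPM + 1) in CTR and -0.34 with RA, and both values are within 2-fold. For HEY2 it was 0.93 in CTR and -1.45 with RA, since HEY2 was highest of the 4 libraries in CTR GFP-positive cells and lowest in RA GFP-positive cells. Each value rests on a pair of single libraries, and the difference between CTR and RA was not tested.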

How the results depend on the processing

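Of 252 alternative values of the members' differences, 241 stayed within the counting interval and 11 moved beyond it. Among differences of at least 1 in size, 0 changed sign, and smaller differences were not counted as reversed. The sign of IRX3 with RA in GFP-positive cells changed under 3 of 7 alternatives, between -0.04 and 0.04. The counts of members past 2-fold stayed within 1.5 times under all 40 alternatives, although IRX1 dropped from the GFP-positive RA comparison with a pseudocount of 5 CPM and with a filter of 10 CPM.

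Counts of all genes past 2-fold depended on the pseudocount and the filter. With 0.25 CPM the RA comparison in GFP-positive cells counted 2079 genes. With 5 CPM it counted 513, the RA comparison in GFP-negative cells 707, and the fractions 2709 in CTR and 2368 with RA. With a filter of 10 CPM the same 4 counts were 650, 943, 2973 and 2656. Per kilobase, IRX3 took 58.5% and IRX4 15.5% of the IRX level in RA GFP-positive cells and 32.9% and 56.4% in CTR, HEY1 took 76.5% of the HEY level in RA GFP-positive cells and 33.0% in CTR, and HEY2 65.8% in CTR. Per kilobase of all annotated exons, a setting chosen after seeing the data, HEY1 took 56.9% and HEY2 20.4% in RA GFP-positive cells, and 16.8% and 81.7% in CTR.

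Scaling without mitochondrial genes moved the median of all genes from 0.04 to -0.11 in the RA comparison of GFP-negative cells, and scaling by library size moved it to -0.08. The fractions of a culture form a pair, and an additive fit of fraction and treatment over the 4 libraries was left out. The CTR GFP-negative library is the shallowest, and IRX1, IRX4 and IRX6 rest there on 12, 7 and 2 reads.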

Other observations

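MKX, the TALE relative nearest to the IRX genes and known from tendon, had 11, 16, 18 and 9 reads in RA GFP-positive, CTR GFP-positive, RA GFP-negative and CTR GFP-negative cells. It reached 1 CPM only in the CTR GFP-negative library, at 1.92 CPM (0.876 to 3.64).

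Among the protein-coding neighbours, ADAMTS16, which lies beyond IRX1, had 1.53 and 1.01 CPM in RA and CTR GFP-positive cells and 16.4 and 16.6 CPM in the GFP-negative cells. NCOA7, beyond HEY2, had 31.1 and 17.0 CPM in the GFP-positive cells and 105 and 85.8 CPM in the GFP-negative cells. NDUFS6 and MRPL36, on the far side of IRX4, were within 2-fold in both RA comparisons, at 52.4 and 63.3 CPM and at 17.4 and 20.6 CPM in RA and CTR GFP-positive cells.

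Epithelium and endoderm markers were at least 2-fold higher with RA in GFP-negative cells for 6 of 10 genes, beside 8.69% of all genes, with a summed level of 2681 CPM against 1331 CPM in CTR, while FOXA2 and APOA2 had 0 reads in the CTR library. Endothelium markers summed to 114 and 91.4 CPM in RA and CTR GFP-positive cells and to 509 and 427 CPM in the GFP-negative cells, with VWF and ESAM at 0 reads in CTR GFP-positive cells. EGFL7 made up 91.6 and 71.2 CPM of the GFP-positive sums. In GFP-positive cells 9 of 10 were at least 2-fold below their GFP-negative level in CTR and with RA, beside 17% and 14.1% of all genes. The medians were -3.44 and -3.56. Neural markers summed to 440 and 284 CPM in the GFP-positive cells, of which NES, which is not particular to neural cells, made up 363 and 266 CPM. Of the 6 that passed between these libraries, 2 were at least 2-fold higher with RA and 0 lower, beside 5.09% and 2.12% of all genes. They were STMN2 (42.5 and 1.26 CPM) and MAP2 (23.6 and 6.35 CPM). With RA, 5 of the 6 neural markers that passed were below their GFP-negative level in GFP-positive cells (median -0.48) and NES was above it. Only 1 of the 6 was at least 2-fold lower and 1, NES, at least 2-fold higher, beside 14.1% and 10.2% of all genes. The part of these cell types in the levels of the IRX and HEY genes was not tested.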
